A study of Homo sapiens with 12 samples.

Results

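The nuclear genes of oxidative phosphorylation were followed across 4 groups of IMR32 cells, a human neuroblastoma line with amplified MYCN. Members were taken by symbol from a table of 27514 genes: names starting with NDUFA, NDUFB, NDUFC, NDUFS, NDUFV, UQCR or ATP5, COX followed by a digit, and SDHA, SDHB, SDHC, SDHD and CYC1. Of 114 rows that matched, 4 antisense transcripts, 3 pseudogenes and 2 readthrough transcripts were left out, and 105 genes remained. They comprised 37 subunits of complex I, 9 complex I assembly factors (ATP5SL, now named DMAC2, among them), 4 subunits of complex II, 10 genes of complex III, 19 genes of complex IV, 9 complex IV assembly factors and 17 genes with ATP synthase symbols. Of the 105, 97 had a mean of at least 1 CPM (counts per 1 M reads) over the 12 samples and were tested. The other 8 were COX4I2, COX6A2, COX6B2, COX7A1, COX7B2, COX8C, NDUFA4L2 and ATP5L2.

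Each group held 3 samples that had received siRNA by Nucleofector electroporation and were then cultured for 72 h in medium with fetal calf serum. The control group (siCtrl) received a control siRNA. MYCN was targeted in the group siMYCN, HAND2 in the group siHAND2, and the 2 genes together in the combined knockdown. Since both are transcription factors, the question is which genes depend on either or on the pair. The titles carry a single number with each target in every group that received it, which may name the siRNA used. If so, effects of that siRNA on other genes cannot be told apart from loss of its target. The labels do not say that the samples came from separate cultures, so p-values measure only the spread between these samples, which may be technical.

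The inner mitochondrial membrane carries the respiratory chain, in which complex I and complex II pass electrons from NADH and succinate to coenzyme Q, complex III passes them on to cytochrome c, and complex IV reduces oxygen. Complexes I, III and IV pump protons, and ATP synthase uses the proton gradient to make ATP. Most subunits are encoded in the nucleus and joined, with the help of assembly factors that are not part of the finished enzymes, to a few core subunits encoded by mitochondrial DNA. Of the 13 protein genes of mitochondrial DNA, 0 were found among the listed genes by the symbols searched, so they were not analysed here.

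The targeted genes were lower in the groups labelled for them. MYCN is the amplified gene of the line, and HAND2 is a factor of sympathetic neurons. The siCtrl level of MYCN was 1009 ± 43 CPM (SD, n = 3). It was 682 ± 23 CPM with its own siRNA, 849 ± 49 with that against HAND2 and 482 ± 64 with both, which are 67.5%, 84.1% and 47.7% of the siCtrl mean. Its log2 change was called in siMYCN (−0.57, adjusted p = 0.000532) and the combined knockdown (−1.07) and not in siHAND2 (−0.25, adjusted p = 0.086). HAND2 was at 239 ± 15, 326 ± 7.5, 62.3 ± 7.1 and 73.5 ± 11 CPM, so it was at 136% of siCtrl in siMYCN and at 26.0% and 30.7% in the groups that received the HAND2 siRNA. Depth, estimated from the steps between low CPM values, was 31.6 to 64.2 M reads per sample, of whichever reads the CPM were divided by. In each group 10 of 11 adrenergic neuroblastoma markers reached a mean of 1 CPM. Their sum was 1733 to 1850 CPM in siCtrl samples, 1809 to 1863 in siMYCN, 1465 to 1602 in siHAND2 and 980.7 to 1376 in the combined knockdown. MYCN and HAND2 are among the 11 and hold much of this sum, so it includes the changes of the targeted genes themselves. The 13 markers of immune, endothelial, fibroblast, epithelial and Schwann cells summed to 17.9 to 20.6 CPM in siCtrl samples, 19.5 to 19.6 in siMYCN, 11.0 to 11.9 in siHAND2 and 7.36 to 10.7 in the combined knockdown, with CD3E at 0 throughout. The part of these differences in the results was not tested.

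The CPM of the listed genes summed to 64.3 to 65.8% of 1 M in siCtrl samples, 61.3 to 63.3% in siMYCN, 56.8 to 61.4% in siHAND2 and 58.4, 51.4 and 44.3% in the combined knockdown, and the denominator of the CPM is not given in the sources used here. The median change of all 12680 genes tested was 0.01 (log2) in siMYCN, −0.14 in siHAND2, and −0.28 with both targeted. Counts of calls are given on the deposited CPM scale and on a rescaled one, in which samples were brought to a common median ratio over genes. Rescaling brought those medians to 0.01, 0.01 and 0.04 (log2). Rescaled, MYCN was at 68.0%, 93.9% and 61.0% of the siCtrl mean in siMYCN, siHAND2 and the combined knockdown. Its rescaled log2 changes were −0.56, −0.09 and −0.71. HAND2 was then at 136.9%, 29.14% and 39.25% of the siCtrl mean. The CPM of samples and their overlap are given on the deposited scale unless stated. Fold changes are differences of log2(CPM + 1), which understates the change of low genes, and a gene is termed called at a Benjamini-Hochberg adjusted p under 0.05 over all genes tested by limma.

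With MYCN reduced, 16 of the 97 members were called lower and 0 higher. That is 16.5% lower beside 16.3% of all genes tested, and 0 beside 17.4% higher, so the share of members called lower was near the background, and no member was higher at an unadjusted p under 0.05 in siMYCN or siHAND2 on this scale by limma. With HAND2 reduced, 47 members were called lower and 0 higher, or 48.5% beside a background of 30.4% lower and 12.3% higher. In the combined knockdown 61 were called lower and 1 higher, or 62.9% beside 50.1% of all genes lower and 17.4% higher. In bulk RNA, fewer cells that express a gene and less of its RNA per cell cannot be told apart. The median change of the 97 members was −0.12, −0.29 and −0.36 (log2) in the 3 knockdowns, beside the all-gene medians above.

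Rescaling changed the calls of many members. On the rescaled values 24 members were called lower and 1 higher in siMYCN (background 22.5% and 25.4%), 27 lower and 3 higher in siHAND2 (24.9% and 25.9%), and 27 lower and 16 higher in the combined knockdown (33% and 37.7%). The members' median was −0.11, −0.13 and −0.01 (log2). Called lower on both scales were 16 members in siMYCN, 27 in siHAND2, and 27 with both targeted, beside 15.8%, 24.8% and 33% of all genes tested. The 3 comparisons share the siCtrl samples. Leaving out siCtrl replicate 1, siCtrl replicate 3, or siMYCN replicate 1, 2 or 3 took the siMYCN count from 16 to 7, 7, 9, 8 and 7. Leaving out siCtrl replicate 1, siCtrl replicate 3, siHAND2 replicate 1 or siHAND2 replicate 3 took the siHAND2 count from 47 to 28, 25, 31 and 29, and without siCtrl replicate 3 the count on both scales fell from 27 to 16.

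**Figure D1:**
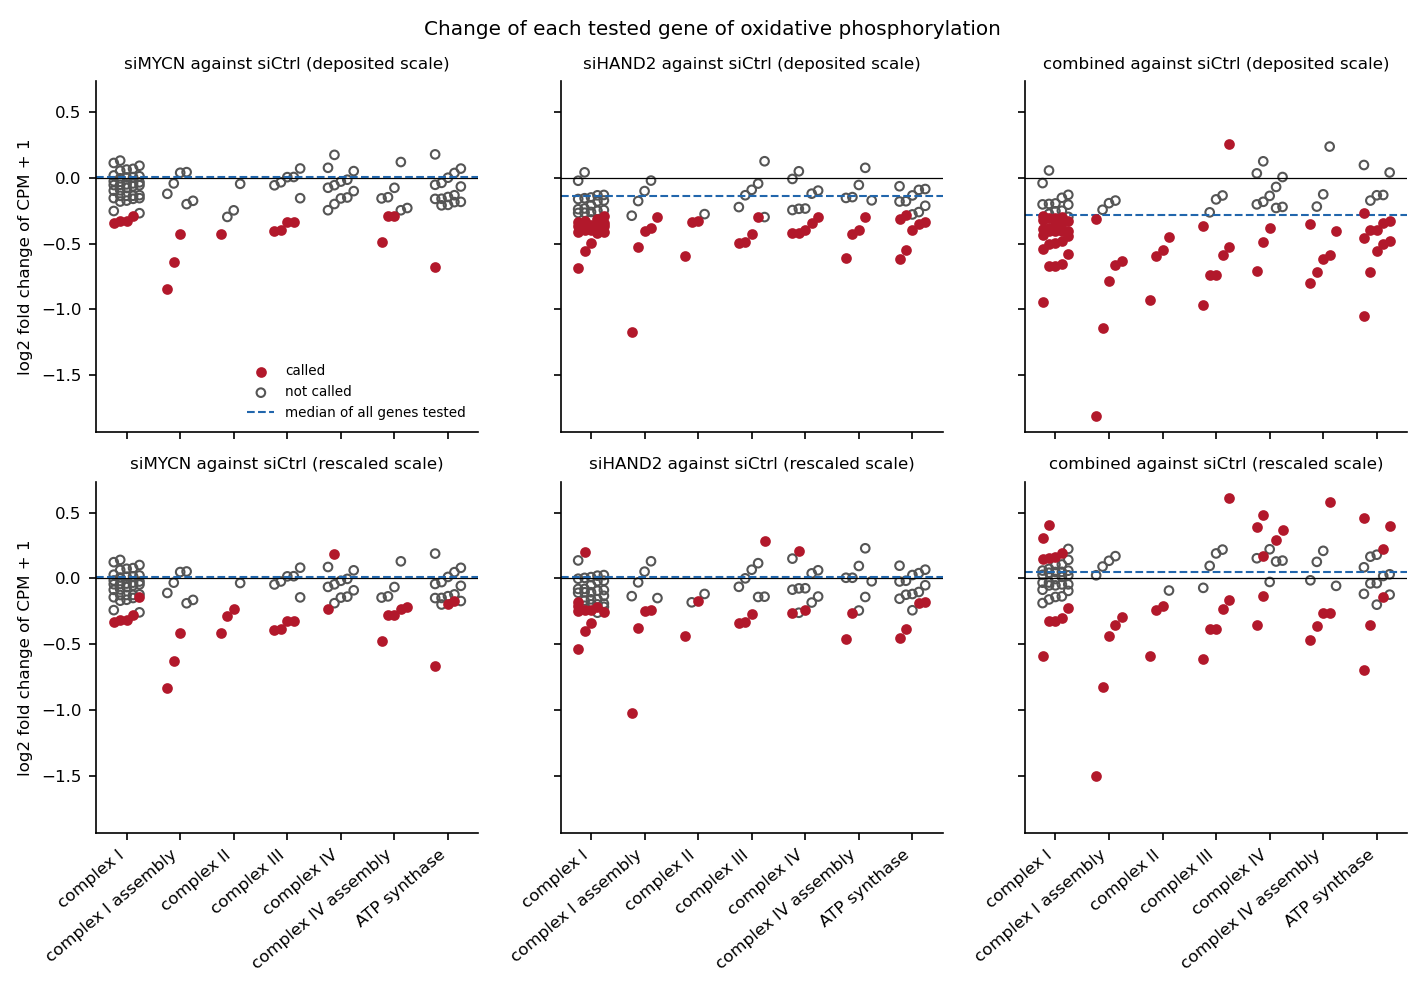
Change of each of the 97 tested genes against siCtrl (y axis, log2 fold change of CPM + 1) by complex (x axis), with 1 panel per knockdown on the deposited scale (upper row) and on the rescaled scale (lower row). Filled points passed the adjusted p threshold, open points did not, and the dashed line is the median of all genes tested. In the combined knockdown 61 genes were called lower on the deposited scale, while on the rescaled scale 27 were called lower and 16 higher.

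In siCtrl, levels per length differed widely among members. The length used was that of the exons of the GENCODE canonical transcript, and the ranks depend on that choice. UQCRB, at 103 CPM in siCtrl, came to 12.1 CPM per kb with a length of 8.459 kb. The highest level in CPM per kb was that of ATP5B, the catalytic beta subunit of ATP synthase, at 388 ± 7.0 (SD, n = 3), and that of COX6A1, a complex IV subunit, was 379 ± 24, within its spread. NDUFB11 led complex I with 209 ± 14 CPM per kb, UQCRH led complex III with 130 ± 7.0, and SDHC led complex II with 57.5 ± 3.4. The highest assembly factors were lower: COX17, a copper chaperone, reached 50.3 ± 5.1 CPM per kb, and NDUFAF2 reached 25.2 ± 1.9. Single subunits could lie below both, such as SDHA (20.2) and NDUFS1 (8.2).

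**Figure D2:**
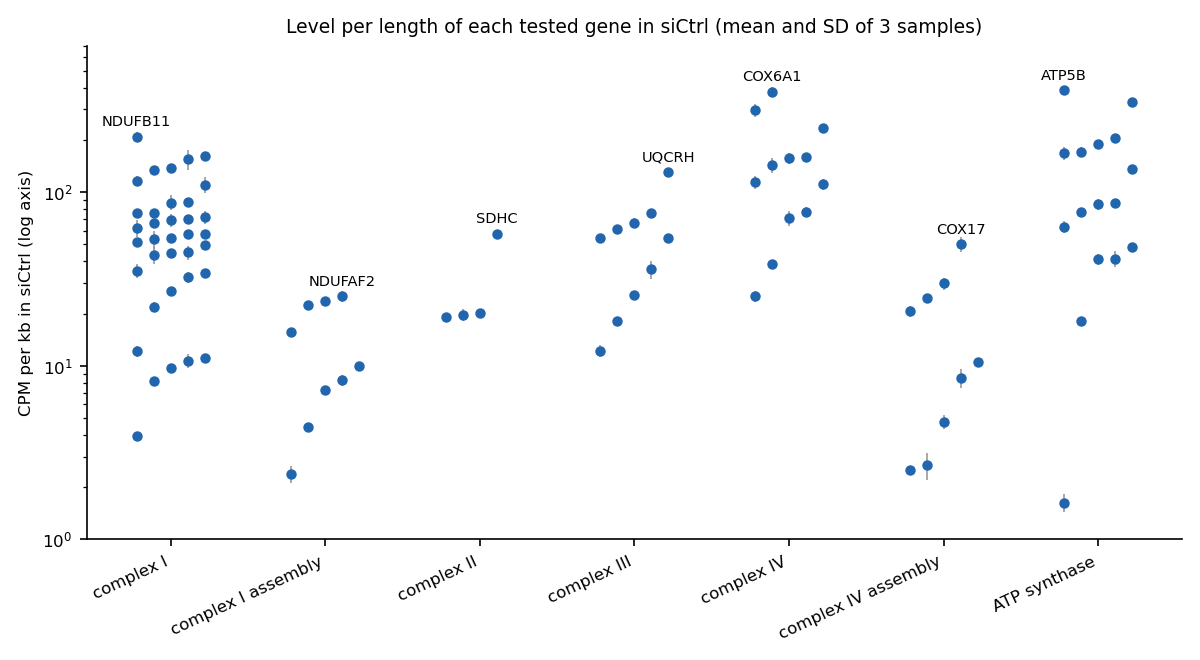
Level per length in siCtrl of each tested gene with a transcript length (y axis, CPM per kb, log axis; points are means of 3 samples and bars their SD) by complex (x axis), with the highest gene of each class named. The assembly factors reach at most 50.3 CPM per kb, below the highest genes of complexes I, III and IV and of ATP synthase, which lie between 130 and 388. Complex II reaches 57.5.

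Promoter windows from 250 bases before to 50 bases after the start of the gene were read from a RefSeq table (GRCh38.p14) for 83 of the 105 members and for 27305 genes in all, and both strands were searched. MYCN and its partner MAX bind E-boxes, of which CACGTG is the canonical form. It was found in 10.84% of the member windows and 7.435% of all windows. CATCTG, an E-box form bound by HAND proteins, was found in 10.84% and 14.77%, and CAGCTG, a form of other tissue-specific bHLH factors, in 19.28% and 17.74%. The palindromic motif of NRF1, a regulator of respiratory genes, was found in 8.434% of the member windows and 1.359% of all. CCGGAAG of the ETS family, to which GABPA belongs, was found in 27.71% and 10.67%, and AAGATGG of YY1 in 20.48% and 6.061%. A match describes the letters in these windows only.

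Stretches of 30 bases around a match are given for 4 members called lower in siMYCN (ATP5G1, COX14, SDHD and COX18) and, beside them, for NDUFS7 and UQCR11, which hold CACGTG and were not called in any knockdown against siCtrl. Of the 7 member windows with the NRF1 motif, those of ATP5C1, COX17, NDUFA8, NDUFAF5 and NDUFB4 are not shown. These genes were not called in siMYCN on the deposited scale. The capitals mark the motif, and the stretches read in the direction of the gene. They were placed in GRCh37 by exact match, at chr17:46970141-46970170 (plus strand) for ATP5G1, chr12:50505954-50505983 (plus) for COX14, chr19:1383707-1383736 (plus) for NDUFS7, chr19:1605631-1605660 (minus) for UQCR11, chr11:111957477-111957506 (plus) for SDHD and chr4:73935461-73935490 (minus) for COX18.
ATP5G1, CACGTG: gaaggtccaggaCACGTGggtgggggaagc
COX14, CACGTG: ggacgctaccctCACGTGtctggttccgag
NDUFS7, CACGTG: acccgcggccccCACGTGcgcactccgatg
UQCR11, CACGTG: cggccgccagacCACGTGgccagaaagcac
SDHD, NRF1: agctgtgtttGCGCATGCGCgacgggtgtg
COX18, NRF1: gcaggcaggcGCGCATGCGCtttatgcccg
Counting from 1 at the RefSeq start, the E-box of ATP5G1 began at position 5 and that of COX14 at −53, while those of NDUFS7 and UQCR11 both began at −187. Among the 79 tested members with a window, 2 of 9 with CACGTG and 11 of 70 without it were called lower in siMYCN (2 and 19 rescaled), with median changes of −0.13 and −0.10 (log2). In siHAND2 7 of 9 and 29 of 70 were called lower on the deposited scale, with medians of −0.30 and −0.27, and 2 of 9 and 18 of 70 on the rescaled one. In the combined knockdown 6 of 9 and 43 of 70 were called lower on the deposited scale. After rescaling 2 of 9 and 21 of 70 were lower there and 0 and 15 higher, with medians of 0.03 and −0.01.

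Complex I is the largest enzyme of the chain. Of its 37 subunit genes, 4 were called lower in siMYCN, 19 in siHAND2, and 25 with both targeted, and 0 higher. For this class and those below, the backgrounds were 16.3%, 30.4% and 50.1% of all genes tested lower and 17.4%, 12.3% and 17.4% higher. Rescaled, the backgrounds were 22.5%, 24.9% and 33% lower and 25.4%, 25.9% and 37.7% higher. On the rescaled values the counts were 5 lower and 0 higher, 10 lower and 1 higher, and 5 lower and 6 higher. The 6 that were higher on that scale in the combined knockdown included NDUFA1, NDUFS4 and NDUFA10, whose deposited changes of −0.04, 0.06 and −0.20 were not called.

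NDUFB6, a subunit of the membrane arm, had the largest siHAND2 fall of the complex. It was at 33.0, 30.8 and 36.0 CPM in siCtrl, 27.9, 28.0 and 27.3 in siMYCN, 20.3, 20.8 and 19.5 in siHAND2, and 21.4, 18.4 and 21.8 in the combined knockdown. On the deposited scale all samples that received the HAND2 siRNA lay below all siMYCN and siCtrl samples. Rescaled, its combined replicate 3 (29.96 CPM) lay above all siMYCN samples (25.2 to 25.7) and above siCtrl replicates 1 and 2. Its log2 change in siHAND2 was −0.69 ± 0.11 (SE, adjusted p = 1.1e-05; −0.53 rescaled), in the combined knockdown −0.67 (−0.32 rescaled) and in siMYCN −0.25, which was not called (adjusted p = 0.072). The rescaled call in the combined knockdown was lost without siCtrl replicate 3 or combined replicate 1 or 2 (adjusted p up to 0.0613). NDUFB6 overlaps SMIM27 on the other strand, and whether counting used strand is not given in the sources used here, so its values are uncertain in that respect.

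NDUFV1 carries the site where NADH is oxidised. It was at 88.1, 83.2 and 84.0 CPM in siCtrl, 70.4, 68.1 and 62.1 in siMYCN, 70.2, 71.7 and 62.8 in siHAND2, and 54.7, 46.4 and 33.0 in the combined knockdown. On the deposited scale the single knockdowns overlapped each other, lay below siCtrl, and lay above all combined samples. Rescaled, the siMYCN samples (57.7 to 63.8 CPM) lay below the siHAND2 samples (66.6 to 71.9), and both still lay between siCtrl and the combined samples. The change in the combined knockdown was −0.94 ± 0.14 (adjusted p = 1e-06; −0.59 rescaled). The siMYCN change of −0.35 sat at the threshold (adjusted p = 0.05) and lost its call without any of the 6 libraries compared, where the adjusted p rose to as much as 0.18. NDUFAB1, the mitochondrial acyl carrier protein that complex I holds as a subunit, was called lower in all 3 knockdowns on the deposited scale (−0.33, −0.41 and −0.54) and in the single ones on the rescaled scale. Its siMYCN call on the deposited scale was lost without siCtrl replicate 1 or 3 or siMYCN replicate 1, 2 or 3 (adjusted p up to 0.122).

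NDUFA12 and NDUFS6, accessory subunits placed late in complex I assembly, were lower in both groups that received the HAND2 siRNA. NDUFA12 had means of 49.3, 44.8, 33.3 and 31.0 CPM in siCtrl, siMYCN, siHAND2 and the combined knockdown, and changes of −0.56 in siHAND2 and −0.66 in the combined knockdown (−0.40 and −0.30 rescaled). NDUFS6 went from 36.1 to 34.5, 27.2 and 22.5 CPM, with changes of −0.40 and −0.67 (−0.24 and −0.32 rescaled). Neither was called in siMYCN, where their changes were −0.14 and −0.06, and the siHAND2 call of NDUFS6 was lost without siCtrl replicate 3 or siHAND2 replicate 1 (adjusted p up to 0.0605 over both scales). NDUFB11, the complex I gene highest per length, was at 123 ± 8.0, 122 ± 0.50, 102 ± 5.3 and 93.2 ± 15 CPM and was called only in the combined knockdown on the deposited scale (−0.40; −0.05 rescaled, not called).

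The largest fall of any member in each knockdown was that of a complex I assembly factor, NDUFAF2. Of the 9 factors, 3 were called lower in siMYCN, 5 in siHAND2, and 6 with both targeted, and on the rescaled values 3, 4 and 5. None was called higher in these comparisons on either scale, where the backgrounds are those given above.

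NDUFAF2, a chaperone that stays on complex I until late in its assembly and is a paralog of NDUFA12, lies on chromosome 5 (60240956 to 60448865, plus strand, GRCh37). Its promoter window held none of the motifs searched, and the bases just before the deposited start (chr5:60240901-60240955, plus strand) are shown because the gene had the largest falls.
NDUFAF2: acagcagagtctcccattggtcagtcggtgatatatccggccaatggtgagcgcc
It was at 15.7, 14.9 and 17.2 CPM in siCtrl, 8.73, 7.61 and 8.94 in siMYCN, 5.89, 7.24 and 6.45 in siHAND2, and 4.44, 3.91 and 3.17 in the combined knockdown. On the deposited scale the 4 groups did not overlap, and the combined samples were at 24.1% of the siCtrl mean. Rescaled, its siMYCN samples (6.98 to 8.31 CPM) and siHAND2 samples (5.84 to 7.26) overlapped. Its log2 changes were −0.85 ± 0.12 (SE, adjusted p = 5.1e-06) in siMYCN, −1.17 ± 0.12 (1.8e-08) in siHAND2, and −1.81 ± 0.12 (1.3e-12) with both targeted. On the rescaled values they were −0.83, −1.02 and −1.51. The calls held in each of the 36 fits that left out 1 library, counted over the 3 comparisons and both scales.

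NDUFAF8, which stabilises the assembly factor NDUFAF5, was at 12.6, 12.5 and 13.0 CPM in siCtrl, 7.62, 9.39 and 10.7 in siMYCN, 8.45, 8.53 and 8.52 in siHAND2, and 5.42, 5.44 and 4.75 in the combined knockdown. The siMYCN samples spread around the siHAND2 samples, and all lay between siCtrl and the combined knockdown. The changes were −0.43, −0.52 and −1.14 (−0.41, −0.38 and −0.82 rescaled), and the siMYCN call was lost without siMYCN replicate 1 (adjusted p = 0.0685). NDUFAF4, which works with NDUFAF3 in complex I assembly, was at 37.4, 37 and 38.8 CPM, then 24.8, 22.4 and 24.4 in siMYCN, 26.7, 29.7 and 28.4 in siHAND2, and 24.8, 19.4 and 20.5 in the combined knockdown. Here the combined samples overlapped siMYCN, and siMYCN lay below siHAND2. The changes were −0.64, −0.41 and −0.79 (−0.63, −0.25 and −0.44 rescaled), and the rescaled siHAND2 call was lost without siCtrl replicate 3 or siHAND2 replicate 1.

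NDUFAF3 and NDUFAF6 were called lower in the combined knockdown, by −0.63 and −0.66 (−0.29 and −0.35 rescaled). NDUFAF1 and NDUFAF7 were not called in any knockdown on either scale, with changes between −0.20 and 0.04 on the deposited scale. ATP5SL was called lower in the combined knockdown on the deposited scale alone (−0.31 ± 0.13, adjusted p = 0.03), a call lost without any siCtrl replicate or combined replicate 2 or 3 (adjusted p up to 0.174), and its rescaled change was 0.02. NDUFAF3 overlaps DALRD3 and NDUFAF7 overlaps PRKD3 on the other strand, and in all 11 members overlap another listed gene on their own strand and 22 on the other.

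**Figure D3:**
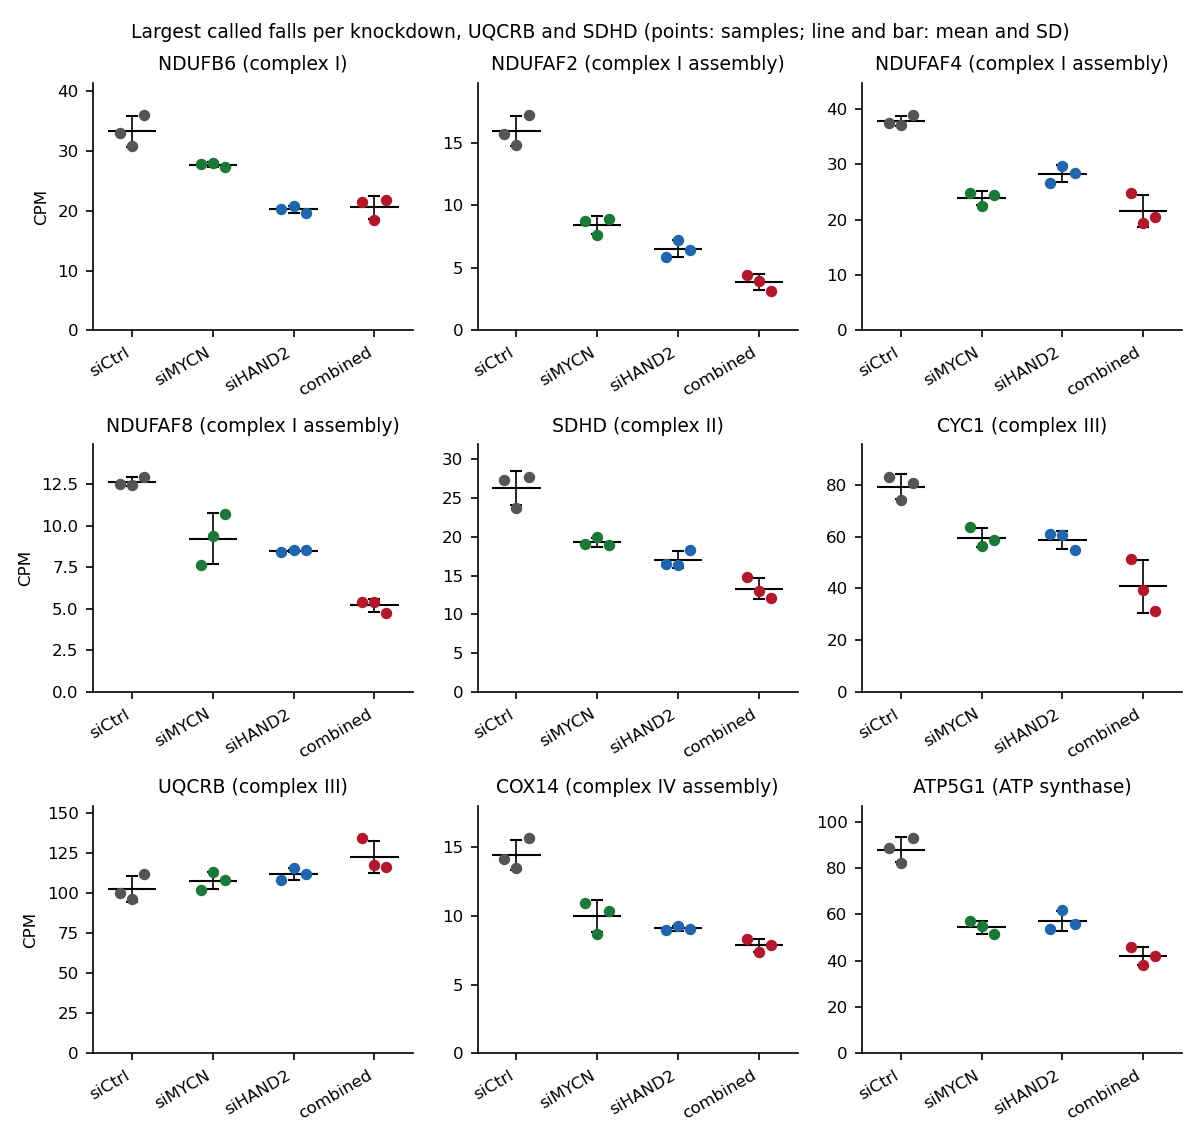
CPM (y axis, from 0) of the members with the 4 largest called falls in each knockdown against siCtrl (mean of at least 5 CPM, no overlap with siCtrl), of UQCRB, the member called higher, and of SDHD, in the 4 groups (x axis). Points are samples, lines the group means and bars the SD of 3 samples. NDUFAF2 falls from 14.9 to 17.2 CPM in siCtrl to 3.17 to 4.44 in the combined knockdown, and UQCRB lies higher there.

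Complex II, or succinate dehydrogenase, also belongs to the citric acid cycle and has all its subunits encoded in the nucleus. Of the 4 genes, 1 was called lower in siMYCN, 3 in siHAND2, and 4 with both targeted, and 3, 2 and 3 on the rescaled values. SDHD, a membrane anchor (chromosome 11, 111957548 to 111966526, plus strand), was at 27.3, 23.8 and 27.7 CPM in siCtrl, 19.0, 20 and 18.9 in siMYCN, 16.5, 16.3 and 18.3 in siHAND2, and 14.8, 13.1 and 12.2 in the combined knockdown. On the deposited scale the groups fell in that order without overlap. Rescaled, its siHAND2 samples (16.4 to 19.4 CPM) overlapped siMYCN and the combined knockdown, and all knockdown samples stayed below siCtrl. Its changes were −0.42 ± 0.11 (SE, adjusted p = 0.0039), −0.59 ± 0.11 (9.4e-05) and −0.93 ± 0.11 (4.3e-08), and −0.41, −0.44 and −0.59 rescaled, and they were called in each of the 36 fits that left out 1 library.

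The other complex II genes had smaller changes. SDHA, the flavoprotein, was at 54.3 ± 0.98, 45.7 ± 2.9, 44.8 ± 2.9 and 36.0 ± 6.5 CPM in siCtrl, siMYCN, siHAND2 and the combined knockdown, and was called on the deposited scale in the combined knockdown alone (−0.60; −0.24 rescaled). Its rescaled changes in the single knockdowns were −0.24 (called) and −0.12 (not called). SDHB, the iron-sulfur subunit, was at 19.4 ± 1.1, 15.6 ± 1.4, 15.2 ± 0.88 and 13.1 ± 2.7 CPM, called in siHAND2 (−0.33; −0.18 rescaled, not called) and the combined knockdown (−0.55; −0.21 rescaled). SDHC, the other membrane anchor, was at 75.2 ± 4.4, 72.8 ± 2.9, 59.7 ± 0.47 and 55.0 ± 5.9 CPM, with changes of −0.05 in siMYCN (not called), −0.33 in siHAND2 (−0.17 rescaled), and −0.45 with both targeted (−0.09 rescaled, not called). The siHAND2 calls of SDHB and SDHC on the deposited scale were lost without siCtrl replicate 1 or 3 or siHAND2 replicate 2 or 3, where the adjusted p reached 0.111 and 0.089. Without siCtrl replicate 1 or 3 the rescaled calls of SDHC in siHAND2 and of SDHB in the combined knockdown were lost, as they were without siHAND2 replicate 1 or 2 and without combined replicate 2 (adjusted p up to 0.177 and 0.0994). SDHC overlaps CFAP126 on the other strand.

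In complex III, 4 of 10 genes were called lower in siMYCN, 4 in siHAND2, and 6 lower and 1 higher in the combined knockdown. After rescaling these were 4 lower, 3 lower and 1 higher, and 5 lower and 1 higher. CYC1, the cytochrome c1 subunit, was at 83.1, 74.0 and 80.7 CPM in siCtrl, 63.6, 56.3 and 58.9 in siMYCN, 61.1, 60.5 and 54.6 in siHAND2, and 51.5, 39.5 and 31.4 in the combined knockdown. On the deposited scale the single knockdowns overlapped each other and lay below siCtrl. The combined samples lay below all others there and were widely spread. Rescaled, combined replicate 1 (52.0 CPM) lay above siMYCN replicate 2 (51.7). The changes were −0.41, −0.43 and −0.97 (adjusted p = 0.02, 0.012 and 5.7e-07; −0.40, −0.27 and −0.61 rescaled). The siMYCN call was lost without siCtrl replicate 1 or 3 or siMYCN replicate 2 or 3 (adjusted p up to 0.086), and the siHAND2 call without siCtrl replicate 1 or siHAND2 replicate 3 (up to 0.0523).

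UQCRQ, a small subunit, fell from 86.0 ± 4.2 CPM to 68.0 ± 4.1, 60.6 ± 0.75 and 51.5 ± 7.5 (changes of −0.33, −0.50 and −0.74, called on both scales). Rescaled, it was at 79.6%, 78.9% and 76.6% of the siCtrl mean, so the knockdowns were nearly alike on that scale. The siMYCN call on the deposited scale was lost without siCtrl replicate 1 or 3 or siMYCN replicate 2 or 3 (adjusted p up to 0.114), and the gene overlaps GDF9 on the other strand. UQCRFS1, the Rieske iron-sulfur protein, was at 80.1, 73.4 and 82.7 CPM in siCtrl and 75.9, 76.1 and 74.8 in siMYCN, which overlapped, and at 54.6, 57.9 and 54.6 in siHAND2 and 54.5, 46.8 and 39.9 in the combined knockdown. Its changes were −0.06 (not called), −0.49 and −0.74 (−0.33 and −0.39 rescaled in the last 2). UQCRH, the hinge protein, had the other order, with changes of −0.39 in siMYCN, −0.22 in siHAND2 (not called) and −0.58 in the combined knockdown (−0.23 rescaled, lost without siCtrl replicate 3 or combined replicate 1 or 2). UQCRHL, called lower in siMYCN (−0.34), is a near copy of UQCRH that can share its reads, so its values are uncertain.

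UQCRB, the ubiquinone-binding subunit, was the member called higher. It was at 100, 96.1 and 112 CPM in siCtrl, 102, 113 and 108 in siMYCN, 108, 116 and 112 in siHAND2, and 134, 118 and 116 in the combined knockdown. On the deposited scale the combined samples lay above siCtrl by little, and the single knockdowns overlapped siCtrl. Its change in the combined knockdown was 0.25 ± 0.11 (adjusted p = 0.044; 0.61 rescaled), and on the deposited scale the call was lost without siCtrl replicate 1 or 2 or combined replicate 1 or 2 (adjusted p up to 0.157). Its siHAND2 change was called higher on the rescaled scale alone (0.29), where the siHAND2 samples did not overlap siCtrl.

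Of the 12 complex IV subunits tested, 0 were called in siMYCN by limma (1 at an unadjusted p under 0.05), 5 lower in siHAND2 and 3 lower in the combined knockdown. Rescaled, 1 was lower and 1 higher in siMYCN, 2 lower and 1 higher in siHAND2, and 2 lower and 5 higher in the combined knockdown. COX6A1, the second most abundant member per length, was at 204, 190 and 216 CPM in siCtrl, 201, 193 and 192 in siMYCN, 156, 157 and 148 in siHAND2, and 170, 141 and 125 in the combined knockdown. Its siMYCN samples overlapped siCtrl and the other groups lay below, with changes of −0.06 (not called), −0.40 and −0.49 (−0.24 and −0.13 rescaled). The rescaled call in the combined knockdown was lost without siCtrl replicate 1 or 3 or combined replicate 2 (adjusted p up to 0.23).

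COX8A lay on opposite sides of siCtrl in the single knockdowns. It was at 112, 113 and 122 CPM in siCtrl, 130, 135 and 127 in siMYCN, 87.4, 91.6 and 79.3 in siHAND2, and 100, 92.1 and 74.4 in the combined knockdown. On the deposited scale all siMYCN samples lay above the siCtrl samples, and all samples with the HAND2 siRNA lay below them. Rescaled, the combined samples (101 to 106 CPM) overlapped siCtrl (102 to 112). The siMYCN difference of 0.18 was not called on the deposited scale (adjusted p = 0.27) and was called on the rescaled one, there lost without siCtrl replicate 1 or siMYCN replicate 2. The changes in siHAND2 (−0.42, adjusted p = 0.0054) and the combined knockdown (−0.38, adjusted p = 0.0058) were called, the last on the deposited scale alone (−0.03 rescaled). COX5A fell by 0.71 in the combined knockdown (0.36 rescaled), from 90.4 ± 5.7 to 54.9 ± 5.2 CPM.

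Several complex IV subunits have a common form and a form restricted to certain tissues or to the testis, and the pairs were split in IMR32. COX4I1 was at 85.0 ± 6.4 CPM in siCtrl and COX4I2, the lung form, at 0.967 ± 0.43. COX6A2, the heart and muscle form of COX6A1, and COX7B2 were at 0 in all 12 samples, where 3 reads are worth 0.0468 to 0.0949 CPM. COX6B1 was at 78.2 ± 1.4 CPM and COX6B2, the testis form, at 0.62 ± 0.22. COX7A1, the muscle form, was at 0 to 0.13 CPM over all samples, while COX7A2 and COX7A2L were at 137 ± 12 and 87.6 ± 2.2 CPM in siCtrl. NDUFA4, a subunit of complex IV despite its name, was at 145 ± 15 CPM and its relative NDUFA4L2 at 0.52 ± 0.25. COX8C reached at most 0.0805 CPM.

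Among these common forms, COX4I1, COX6B1, COX7A2 and COX7A2L were not called in any knockdown on the deposited scale. Their changes in the combined knockdown were 0.13, −0.18, 0.01 and 0.03 there, and on the rescaled values they were 0.48, 0.17, 0.36 and 0.39 and all 4 were called higher. Rescaled, the combined samples of COX7A2 were at 139, 140 and 211 CPM, beside 111 to 134 in siCtrl, so replicate 3 stood far above the others. Those of COX4I1, COX6B1 and COX7A2L also lay above siCtrl without overlap. NDUFA4 was called lower in siHAND2 (−0.34; −0.18 rescaled, not called).

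Of the 9 complex IV assembly factors, 3 were called lower in siMYCN, 4 in siHAND2, and 6 with both targeted, and on the rescaled values 5 lower, 2 lower, and 4 lower and 1 higher (COX20). COX14, which helps to regulate the making of the mitochondrial subunit COX1, lies on chromosome 12 (50505764 to 50514241, plus strand). It was at 14.1, 13.5 and 15.6 CPM in siCtrl, 10.9, 8.69 and 10.4 in siMYCN, 8.96, 9.30 and 9.02 in siHAND2, and 8.29, 7.41 and 7.85 in the combined knockdown. All knockdown samples lay below siCtrl, and the single knockdowns overlapped each other. The changes were −0.49 ± 0.11 (adjusted p = 0.0011), −0.61 ± 0.11 (7.3e-05) and −0.80 ± 0.11 (5.2e-07), and −0.48, −0.46 and −0.47 rescaled.

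COX11, which carries copper to COX1, was at 77.9 ± 3.5, 63.5 ± 1.2, 57.8 ± 0.60 and 47.0 ± 3.4 CPM, with changes of −0.29, −0.42 and −0.72. Rescaled, it was at 82.1%, 82.9% and 77.6% of the siCtrl mean in the 3 knockdowns. The siMYCN call of COX11 on the deposited scale was lost without any of the 6 libraries, and the gene overlaps STXBP4 and TOM1L1 on the other strand. COX10 and COX15, which make heme A, were called lower in the combined knockdown by −0.59 and −0.62 (−0.26 and −0.27 rescaled). COX17 was called in siHAND2 alone and on the deposited scale alone (−0.40; −0.24 rescaled).

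Of the 16 tested ATP synthase genes, 1 was called lower in siMYCN, 7 in siHAND2, and 11 with both targeted, and on the rescaled values 3, 4, and 3 lower with 3 higher. ATP5B was at 690, 669 and 689 CPM in siCtrl, 620, 603 and 582 in siMYCN, 594, 616 and 559 in siHAND2, and 537, 419 and 318 in the combined knockdown. On the deposited scale the single knockdowns lay below siCtrl and above the combined samples, which were spread over a wide range. Rescaled, its siHAND2 samples (590 to 617 CPM) overlapped siCtrl (607 to 634), and combined replicate 1 (542.4) lay above siMYCN replicate 3 (541.4). Its change was called in the combined knockdown alone (−0.72 ± 0.14, adjusted p = 6.2e-05; −0.36 rescaled) and was −0.18 and −0.21 in siMYCN and siHAND2.

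The gene called lower in siMYCN was ATP5G1, now named ATP5MC1. It is 1 of 3 genes, with ATP5G2 and ATP5G3, that encode the same mature subunit c, which forms the rotating ring of the enzyme. ATP5G1 lies on chromosome 17 (46970148 to 46973233, plus strand) and overlaps an uncharacterised gene on the other strand. Besides the CACGTG shown above, its window held CAGCTG, in capitals in the bases before the first exon (chr17:46970040-46970126, plus strand), which are shown because it was the ATP synthase gene called in siMYCN.
ATP5G1: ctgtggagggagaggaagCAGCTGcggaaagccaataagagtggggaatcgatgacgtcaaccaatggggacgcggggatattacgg
It was at 88.5, 82.2 and 92.9 CPM in siCtrl, 57.0, 54.9 and 51.3 in siMYCN, 53.6, 61.7 and 55.7 in siHAND2, and 46.0, 38.2 and 41.9 in the combined knockdown. On the deposited scale the single knockdowns overlapped each other and lay between siCtrl and the combined samples. Rescaled, combined replicate 3 (57.5 CPM) lay above all siMYCN samples and siHAND2 replicate 1, and all knockdown samples stayed below siCtrl. The changes were −0.68 ± 0.11 (SE, adjusted p = 3.7e-05), −0.62 ± 0.11 (7.8e-05) and −1.05 ± 0.11 (7.7e-09), and −0.67, −0.46 and −0.69 rescaled, and they were called in all 36 fits that left out 1 library.

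ATP5G2 was at 216, 197 and 210 CPM in siCtrl, 191, 177 and 173 in siMYCN, 184, 185 and 182 in siHAND2, and 177, 141 and 126 in the combined knockdown. ATP5G3 was at 127, 115 and 130, then 114, 112 and 107, 98.6, 104 and 96.8, and 104, 91.9 and 87.8 CPM. On this scale both lay below siCtrl in every knockdown sample. The deposited changes in siMYCN were −0.21 and −0.16 and were not called, and in the combined knockdown they were −0.50 and −0.39. Rescaled, ATP5G2 changed by −0.20, −0.02 and −0.14, with siMYCN and the combined knockdown called, and ATP5G3 by −0.15, −0.15 and −0.04, none of them called. The rescaled call of ATP5G2 in the combined knockdown was lost without siCtrl replicate 1 or 3 or combined replicate 2 (adjusted p up to 0.15). On that scale ATP5G2 overlapped siCtrl in siHAND2 and ATP5G3 in the combined knockdown.

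The share of a gene in the summed CPM of the 3 does not depend on scaling. The share of ATP5G1 in siCtrl was 20.9% ± 0.46 (SD, n = 3). It was 15.7% ± 0.23 in siMYCN, 16.8% ± 0.82 in siHAND2 and 14.9% ± 1.3 with both siRNAs, and no knockdown sample overlapped siCtrl. ATP5G2 held 49.5%, 52.1%, 54.0% and 51.9%, and ATP5G3 held 29.6%, 32.2%, 29.3% and 33.3%. The exact two-sided permutation test gave p = 0.1 for ATP5G1 in each knockdown, the smallest that 3 samples against 3 allow. These shares were computed after values had been seen, among 30 such tests in all, of which 24 gave 0.1 (0.125 after Benjamini-Hochberg adjustment).

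**Figure D4:**
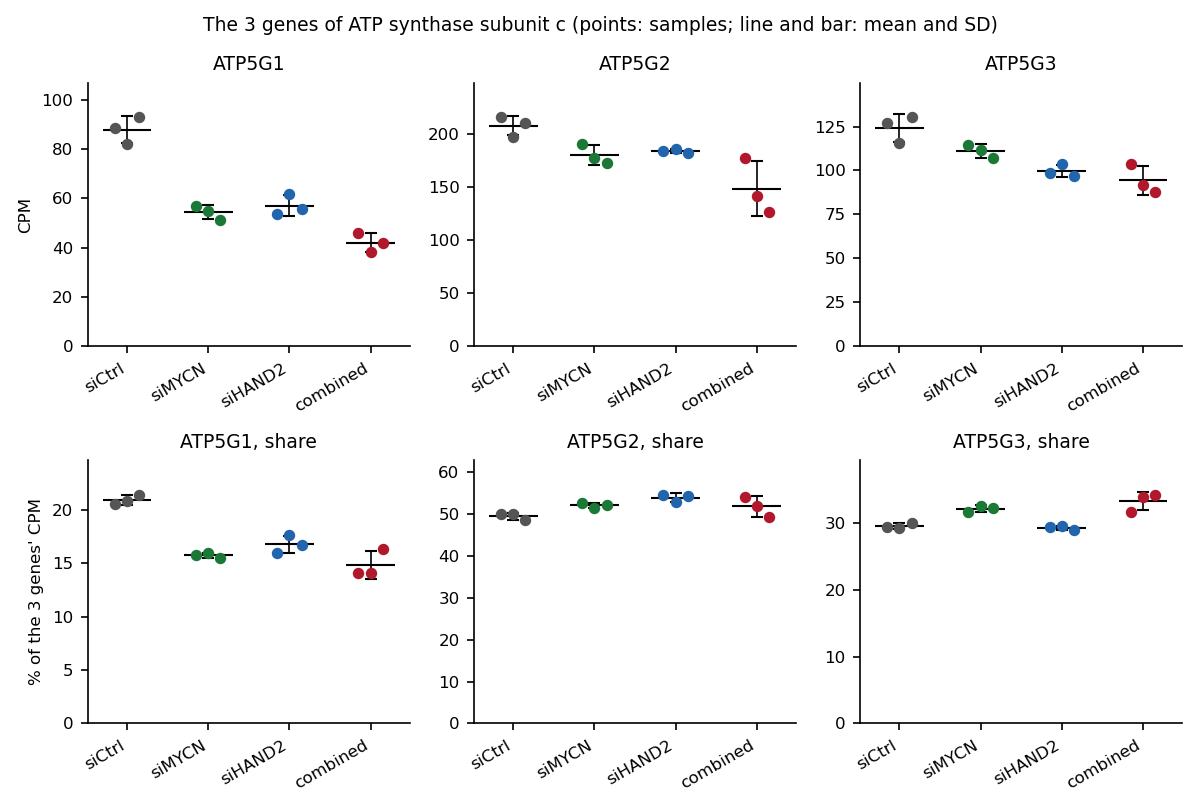
The 3 genes of ATP synthase subunit c in the 4 groups (x axis): CPM in the upper row and each gene's share of the summed CPM of the 3 in the lower row (y axes, from 0). Points are samples, lines means and bars SD. The ATP5G1 share lies at 20.9% in siCtrl and between 14.9% and 16.8% in the knockdowns.

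Class shares within the summed CPM of the 105 genes were compared in the same way. Complex I assembly factors held 2.18% ± 0.081 in siCtrl, 1.91% ± 0.087 in siMYCN, 2.01% ± 0.019 in siHAND2, and with both genes targeted 1.79% ± 0.063. Complex II held 2.47%, 2.34%, 2.29% and 2.12%. In both classes every knockdown sample lay below siCtrl. Complex IV subunits held 18.1% ± 0.31, 19.0% ± 0.0050, 18.2% ± 0.056 and 20.4% ± 1.2, above siCtrl without overlap in siMYCN and the combined knockdown and overlapping it in siHAND2 (exact permutation p = 0.6). Complex IV assembly factors held 3.72%, 3.46%, 3.67% and 3.46%, below siCtrl without overlap in siMYCN and the combined knockdown. Complex I subunits held 27.6%, 28.2%, 27.0% and 27.6%, above siCtrl without overlap in siMYCN and below it in siHAND2. Complex III held 10.6%, 10.5%, 10.9% and 10.5%, below siCtrl in siMYCN and above it in siHAND2. In the combined knockdown these 2 classes overlapped siCtrl. ATP synthase held 35.2%, 34.5%, 35.9% and 34.1%, below siCtrl in siMYCN and the combined knockdown and above it in siHAND2, again without overlap. All 105 genes together held 1.09% ± 0.046 of the summed CPM of the listed genes in siCtrl, 1.05% ± 0.014 in siMYCN, 1.00% ± 0.041 in siHAND2, and with both genes targeted 1.08% ± 0.065.

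**Figure D5:**
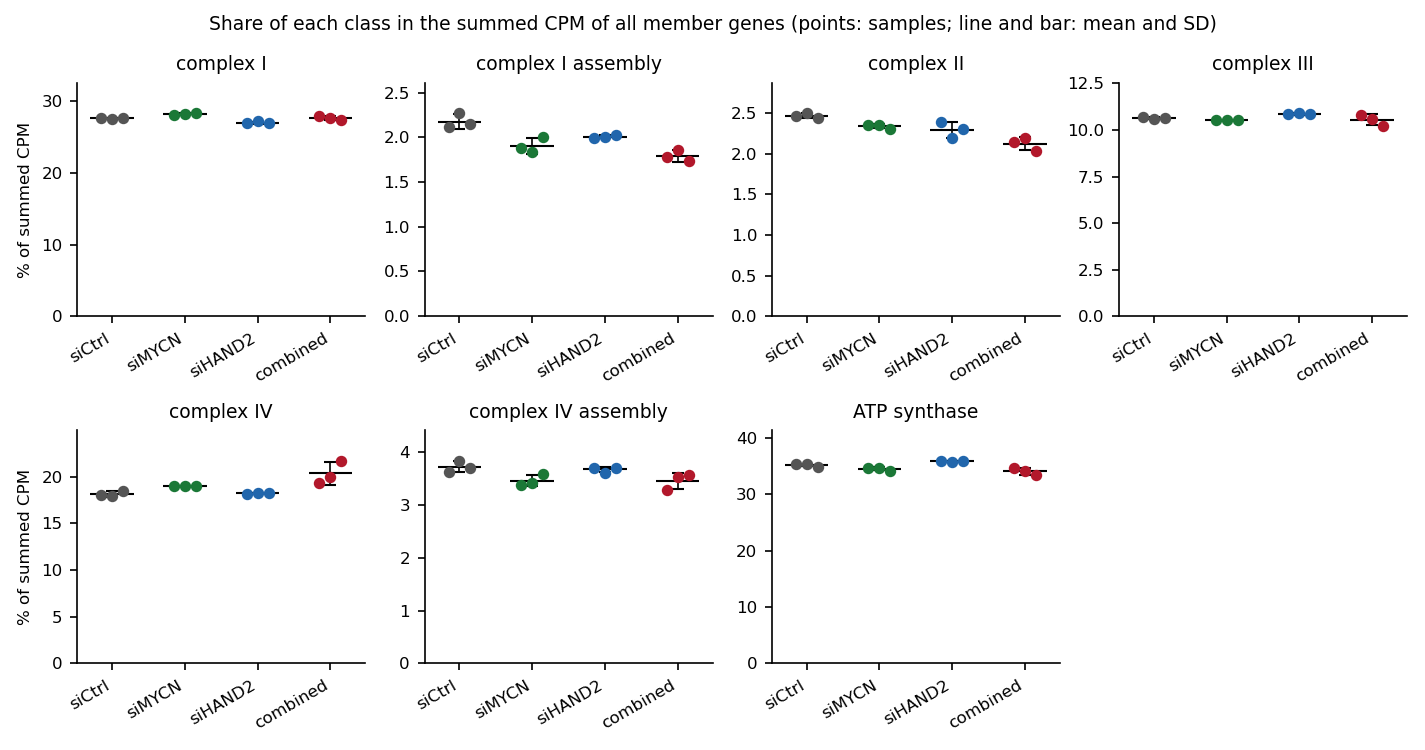
Share of each class in the summed CPM of the 105 genes (y axes, percent, from 0) in the 4 groups (x axis). Points are samples, lines means and bars SD of 3 samples. Complex I assembly and complex II lie lower in all knockdowns, from 2.18% to 1.79% and from 2.47% to 2.12% in the combined knockdown, while complex IV lies at 20.4% there beside 18.1% in siCtrl.

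Adding 1 siRNA to the other was compared next. Against siMYCN alone, adding the HAND2 siRNA gave 43 members called lower and 0 higher (background 50% and 8.92%), and 11 lower and 23 higher on the rescaled values (26.6% and 30%). Called lower on both scales were NDUFAF2 (−0.97; −0.68 rescaled), NDUFAF8 (−0.71; −0.41), UQCRFS1 (−0.68; −0.34), NDUFS6, NDUFV1, CYC1, COX8A, ATP5B, UQCRC1, NDUFAF3 and NDUFAF6. Without combined replicate 1, where the listed genes summed to the highest CPM of the group, the count rose from 43 to 70. Against siHAND2 alone, adding the MYCN siRNA gave 19 lower and 2 higher (31.5% and 8.75%, or 40.3% called in all), and 10 lower and 29 higher rescaled (23.6% and 26.1%). Lower on both scales were NDUFAF2 (−0.64; −0.48), NDUFV1 (−0.63; −0.43), NDUFAF8, CYC1, ATP5B, COX15, ATP5G1, COX10, COX5A and NDUFAF3. NDUFA1 (0.31; 0.51) and ATP5E (0.32; 0.52) were higher on both, as were 8.71% of all genes, and ATP5E shares its locus with the readthrough SLMO2-ATP5E. That total of 21 became 12 without siHAND2 replicate 1 or 2 and 46 without combined replicate 1.

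Between the single knockdowns, 22 members were higher in siMYCN than in siHAND2 and 0 lower (background 26.1% and 8.98%), of which 13 were complex I subunits. On the rescaled values 13 were higher and 13 lower (22.4% and 22.2%). Higher on both scales were COX8A (0.60; 0.45 rescaled), NDUFA1 (0.45; 0.30), NDUFB6 (0.44; 0.29), UQCRFS1 (0.43; 0.29), NDUFB2, NDUFS6, COX6A1, NDUFC2, NDUFB7, NDUFA13, NDUFA3, ATP5J2 and NDUFA12. These 13 stand beside 22.1% of all genes tested that were higher on both scales. The count of 22 became 9, 11 and 13 without siMYCN replicate 1, 2 and 3, and 12 and 11 without siHAND2 replicate 1 and 3.

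The interaction asks whether the combined change differs from the sum of the single changes on the log2 scale. By limma 0 of the 97 members were called, beside 4.01% of all genes tested (3.65% lower), and 2 had an unadjusted p under 0.05 (5 with the replicate number as a block, where 0 were called). The most positive coefficients were those of COX7B (0.42 ± 0.17, adjusted p = 0.16) and NDUFB5 (0.37 ± 0.16, 0.19), and the most negative those of ATP5D (−0.33 ± 0.18, 0.28) and ATP5SL (−0.33 ± 0.18, 0.27). On the rescaled values 1 member was called, beside 6.14% of all genes (1.67% higher and 4.47% lower), and 37 had an unadjusted p under 0.05, all 37 with positive coefficients. With the replicate block on those values 12 were called and 48 had an unadjusted p under 0.05, again with positive coefficients. No share of all genes tested is given for the block or for unadjusted p, so these counts cannot be set against a background. The member called without the block was NDUFAF4 (0.44 ± 0.11, adjusted p = 0.032), whose combined fall was smaller than the sum of its single falls. Without combined replicate 1 the deposited count was 8.

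Other genes that build or feed the chain were taken from 4 lists, whose counts called lower stand beside backgrounds of 16.3%, 30.4% and 50.1% of all genes tested (22.5%, 24.9% and 33% rescaled). Of 36 assembly factors outside the symbol rule, 10 were called lower and 1 higher in siMYCN, 18 lower in siHAND2 and 30 lower in the combined knockdown, with 14, 14 and 18 lower and 1, 0 and 4 higher on the rescaled values. The largest fall was that of COA7, a complex IV assembly factor, from 70.6 CPM to 46.0, 52.3 and 30 (−0.61, −0.43 and −1.22; −0.60, −0.27 and −0.87 rescaled). UQCC3, a complex III assembly factor, had the largest in siHAND2 (12.3 to 7.03 CPM, −0.73; −0.58 rescaled). SURF1, another complex IV factor, rose in siMYCN from 19.2 to 24.6 CPM (0.35, on both scales). The list's medians in the 3 knockdowns were −0.21, −0.31 and −0.55 (log2), beside the all-gene medians given above, and −0.20, −0.17 and −0.22 rescaled.

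Of 12 genes of coenzyme Q synthesis and cytochrome c, 5, 6 and 11 were called lower in siMYCN, siHAND2 and the combined knockdown (5, 4 and 5 rescaled), with medians of −0.16, −0.28 and −0.52 (−0.15, −0.13 and −0.18 rescaled). COQ2, which joins the ring of coenzyme Q to its tail, went from 8.36 CPM to 5.62, 4.17 and 2.53 (−0.50, −0.86 and −1.41; −0.49, −0.72 and −1.12 rescaled). COQ8A had the largest siMYCN fall, from 69.8 to 42.7 CPM (−0.70; −0.69 rescaled), and was at 63.9 CPM in siHAND2 (−0.13; 0.03 rescaled, neither called). Of 20 genes of pyruvate oxidation and the citric acid cycle, 5, 6 and 16 were called lower (5, 5 and 11 rescaled, with 3, 1 and 2 higher), with medians of −0.10, −0.26 and −0.61 (−0.09, −0.11 and −0.25 rescaled). Fumarase (FH) went from 111 CPM to 88.1, 74.9 and 53.1 (−0.33, −0.56 and −1.07; −0.32, −0.40 and −0.71 rescaled). The malate dehydrogenase MDH2 went from 155 to 110, 127 and 76.6 (−0.49, −0.29 and −1.03; −0.48, −0.13 and −0.68 rescaled), with siHAND2 not called on either scale.

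Of 19 genes for mitochondrial transcription, DNA upkeep and biogenesis, 10 were called lower and 1 higher in siMYCN, 9 and 2 in siHAND2, and 16 and 2 in the combined knockdown, and 10, 8 and 13 were lower and 1, 2 and 2 higher on the rescaled values. The medians were −0.32, −0.30 and −0.67 (−0.31, −0.15 and −0.34 rescaled). The related coactivators PPARGC1A and PPARGC1B, which promote expression of respiratory genes, moved in opposite directions on both scales. PPARGC1A rose from 4.98 CPM to 6.74, 9.07 and 14.4 (0.37, 0.75 and 1.35; 0.37, 0.88 and 1.68 rescaled), and PPARGC1B fell from 4.64 to 1.08, 2.49 and 0.673 (−1.43, −0.69 and −1.75; −1.39, −0.56 and −1.55 rescaled). MTERF3, which acts on mitochondrial transcription and ribosome assembly, fell from 21.4 to 13.4, 12.0 and 8.68 CPM (−0.63, −0.78 and −1.22; −0.62, −0.63 and −0.89 rescaled).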

How the data were processed

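RNA-seq was made from 12 samples in 4 groups of 3, grouped by title. The authors deposited CPM values for 27514 genes; alignment with STAR 2.5.1 to hg19 and the use of Partek are per the submitters' processing notes, and the counting tool, its use of strand and the denominator of the CPM are not given in the sources used here. Depth was estimated from CPM steps, and intervals from it would cover counting error only. From the deposited CPM, log2(CPM + 1) was fitted with limma 3.58.1 in R 4.3.3 (trend, all 12 samples, 8 residual degrees of freedom) for 12680 genes with a mean of at least 1 CPM, with Benjamini-Hochberg adjustment over all of them. The script was tested on simulated data. Rescaling used median ratios over 10192 genes with a mean of at least 5 CPM.

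Named members were, per knockdown, the 4 largest called rises and falls with a mean of at least 5 CPM and no overlap with siCtrl, the extreme interactions, complex II, CYC1, the isoform sets, the gene of each complex highest per kb and the extremes of each list. Other members named were chosen after their values were seen. Members and lists were chosen with earlier results of these data known. Same-numbered siCtrl and siMYCN samples deviated together (r of 0.147 to 0.44), as did siMYCN and siHAND2 samples (0.137 to 0.33). In the other pairs of groups some correlations were under 0.1, down to −0.192 between siHAND2 and the combined knockdown. Samples of unlike numbers were not compared, so whether the titles' numbers pair samples is not known.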

Additional observations from a re-analysis of the deposited data

How the results depend on the processing

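Among the alternatives run, which are limited to these 12 libraries, the cause of each change below was not tested. Apart from rescaling by the median ratio, no share of all genes tested is given for an alternative. The same holds for fits without 1 library, here and above. Whether the calls over all genes moved alike is therefore not shown. Called members numbered 16 in siMYCN against siCtrl, and 25 after rescaling by the median ratio, 29 with the replicate block and rescaling, 41 in a fit on the compared groups only and 7 at an adjusted p under 0.01. For siHAND2 against siCtrl, 47 became 30 after rescaling and 26 at an adjusted p under 0.01. For the combined knockdown against siHAND2, 21 became 39 after rescaling, 41 with rescaling to the listed sum, 44 with the block and rescaling, 8 in the compared groups only and 11 at an adjusted p under 0.01. For siMYCN against siHAND2, 22 became 35 with the listed sum, 51 in the compared groups only and 9 at an adjusted p under 0.01. The interaction went from 0 to 1 with either rescaling and 12 with the block and rescaling; it has no fit on compared groups only.

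In fits with the titles' replicate block the counts were 18 (siMYCN), 56 (siHAND2), 69 (combined), 48 (combined against siMYCN), 25 (combined against siHAND2), 28 (siMYCN against siHAND2) and 0 (interaction), and 78 of 78 named single-gene calls kept their side of the threshold. Rescaling by the median ratio reversed the sign of the median change in the combined knockdown against siMYCN (0.1, also with the block, and 0.039 with the listed sum) and against siHAND2 (0.098, also with the block, and 0.116 with the listed sum). It also reversed ATP5SL in the combined knockdown (0.023, also with the block, and 0.014 with the listed sum), and ATP5G2 (0.055, also with the block) and COX14 (0.007, also with the block) in the combined knockdown against siMYCN. Of the 78 calls, 47 were the same after that rescaling and 28 were lost.

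Leaving out 1 library at a time gave 7 to 13 called members in siMYCN, 25 to 46 in siHAND2, 50 to 79 in the combined knockdown, 33 to 70 in the combined knockdown against siMYCN, 12 to 46 against siHAND2, 9 to 15 in siMYCN against siHAND2 and 0 to 8 in the interaction. Members lower on both scales, an alternative chosen after seeing the data, then numbered 7 to 13, 16 to 35 and 21 to 33 in the 3 knockdowns.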

Other observations

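The RNAs of the mitochondrial ribosome, which are encoded by mitochondrial DNA and needed to make its subunits of the respiratory chain, were listed among the genes and were looked at after their values had been seen. RNR2, the large-subunit rRNA, had a siCtrl level of 596 ± 88 CPM (SD, n = 3). It was at 1036 ± 140 CPM with MYCN targeted, 1268 ± 354 with HAND2 targeted and 1674 ± 301 with both. Its log2 changes of 0.80, 1.06 and 1.48 passed the limma test (adjusted p = 0.000512, 1.1e-05 and 1.75e-08), and on the rescaled scale they were 0.81, 1.22 and 1.84. RNR1, the small-subunit rRNA, was at 88.8 ± 1.4, 142 ± 20, 187 ± 78 and 212 ± 45 CPM. In siHAND2 replicate 1 stood above the others, with RNR2 at 1672 CPM and RNR1 at 275.8 CPM.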
